A study of Mus musculus with 6 samples.

Results

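The 8 Hes and Hey genes Hes1, Hes3, Hes5, Hes6, Hes7, Hey1, Hey2 and Heyl were chosen by name, as transcriptional repressors downstream of Notch, and all 8 were found among the 24062 gene symbols counted in mouse embryo heads. RNA came from dissected heads of C57BL/6 embryos at embryonic day 8.5, 2 libraries for each of 3 genotypes. The mutant heads were Prdm15 tm1a-/-, the heterozygous heads Prdm15 tm1a+/- and the wild-type heads Prdm15 tm1a+/+. The allele, tm1a, is a germline insertion in the zinc finger gene Prdm15, so every tissue of an embryo carries it. Each genotype rests on 2 heads. The labels give no sex, litter or batch, so the tests measure only the spread between these libraries.

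When a Notch receptor is cleaved, its intracellular part enters the nucleus, binds the DNA-binding protein RBPJ and switches on Hes and Hey genes. Their products are basic helix-loop-helix repressors, and those of the Hes genes recruit Groucho (Tle) corepressors. In the neural tube Hes1, Hes3 and Hes5 hold back proneural genes and keep progenitors dividing, in the presomitic mesoderm Hes7 oscillates as part of the clock that times somite formation, and Hey1, Hey2 and Heyl act in heart and blood vessels.

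The libraries held 29412227 to 40439234 reads in genes. For 1 wild-type and 1 mutant sample the count file attached to it carries the other sample's title. Files were assigned here by the title in their name. Under this assignment the zeros of every file matched those of the same-titled column of the authors' table (0 genes differed), whereas each of the 2 files differed from the column of the sample it is attached to at 1646 genes. Prdm15 itself did not pass in any contrast (log2 fold change of mutant over wild-type heads -0.21, SE 0.12, adjusted p = 0.221 by edgeR). Counts over a whole gene with an insertion allele do not check the labels. Neural progenitor markers were present in all 6 heads, at a summed 488 and 515 CPM in mutant, 703 and 803 CPM in heterozygous and 925 and 921 CPM in wild-type libraries. Heart markers summed to 2003 and 1178 CPM in mutant, 1699 and 2678 CPM in heterozygous and 232 and 124 CPM in wild-type libraries. Yolk sac visceral endoderm markers summed to 4927 and 4147, 2629 and 1898, and 8.28 and 16 CPM in the same order, with Apoa4 at 0 reads in wild-type replicate 1.

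Hes1 was the most abundant of the 8 in every library and Heyl or Hes7 the least. Levels between genes are compared on the authors' RPKM scale (reads per kilobase of gene, scaled to library size), which divides by gene length. Averaged over the 6 libraries, Hes1 stood at 36.2 RPKM, Hes3 at 14.8, Hes6 at 10.6, Hey1 at 8.32, Hey2 at 5.25, Hes5 at 3.04, Hes7 at 0.570 and Heyl at 0.231 RPKM. Neighbours in this order whose ranges over the 6 libraries did not overlap were Hes1 and Hes3, Hes6 and Hey1, and Hey1 and Hey2. Hes3 and Hes6, Hey2 and Hes5, Hes5 and Hes7, and Hes7 and Heyl overlapped. Hes1 made up 50.5% and 47.2% of the summed RPKM of the 8 genes in mutant, 45.3% and 42% in heterozygous and 43.9% and 46.4% in wild-type libraries.

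**Figure D1:**
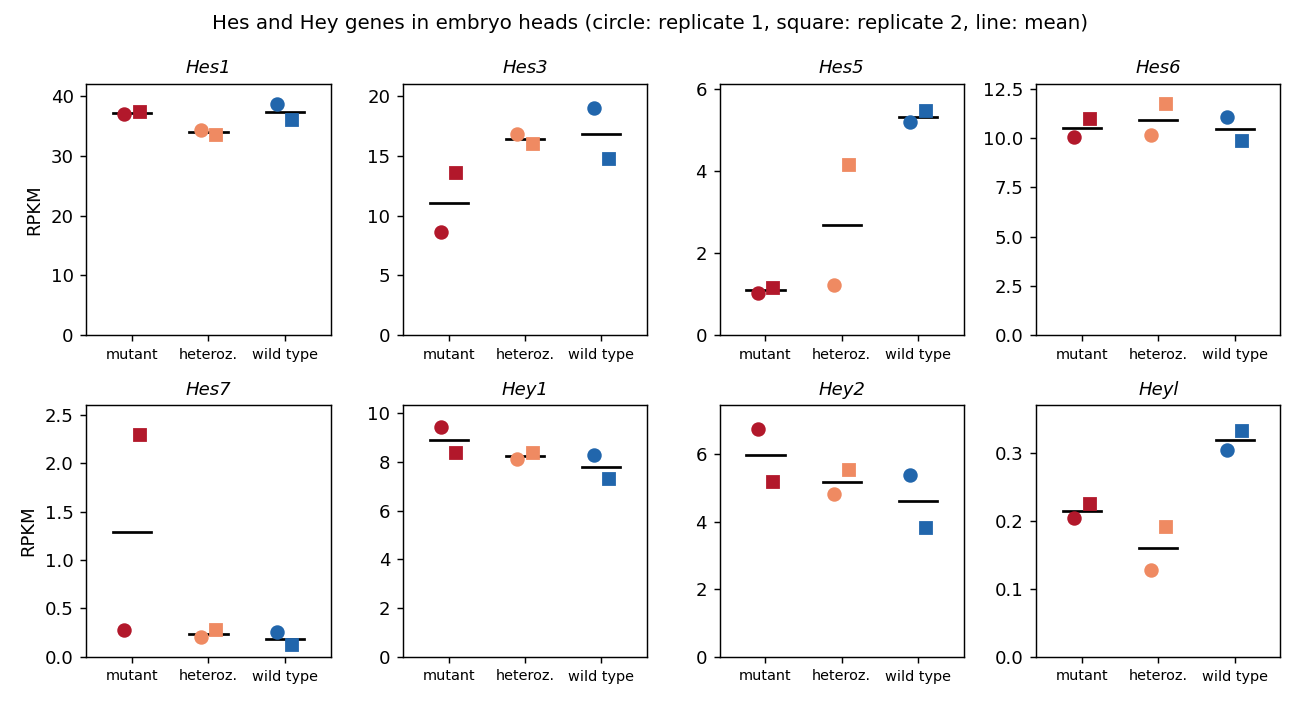
Authors' RPKM of each Hes and Hey gene (linear axis from 0, one scale per panel) in mutant, heterozygous and wild-type heads, with replicate 1 as circle, replicate 2 as square and the mean of the 2 as line. Hes5 lay at 1.04 and 1.15 RPKM in mutant heads against 5.21 and 5.46 RPKM in wild-type heads, and its heterozygous libraries lay apart at 1.22 and 4.15 RPKM.

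Between mutant and wild-type heads, 1 of the 8 genes, Hes5, passed the test, and it was lower in mutants. Across all 15187 genes tested 30.6% passed in this contrast and 13.6% passed as lower, so 1 of 7 tested Hes and Hey genes is near the share of all genes that passed as lower. The median log2 fold change of the 7 genes was -0.00 against -0.02 for all genes tested, and the median size of the change, regardless of sign, was 0.38 against 0.28. Hes7 had too few reads to enter the fit. Hes1, the most abundant, and Hes6 were at fitted folds of 1.00 and 1.01. Adjusted p-values come from edgeR's quasi-likelihood test, Benjamini-Hochberg adjusted over all genes, unless another source is named.

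Hes5 (chromosome 4, 154960923 to 154962371, plus strand, GRCm38), a Notch target of neural progenitors, was counted with 50 and 43 reads in mutant, 48 and 158 reads in heterozygous and 273 and 244 reads in wild-type libraries. In RPKM this was 1.04 and 1.15 in mutant, 1.22 and 4.15 in heterozygous and 5.21 and 5.46 in wild-type libraries. Both mutant libraries were below both wild-type ones, while heterozygous replicate 1 was near the mutant level and heterozygous replicate 2 below but near the wild-type level. The log2 fold change of mutant over wild-type heads was -2.28 (SE 0.56, 95% interval -3.64 to -0.91, adjusted p = 0.0292), a level 0.207 times that of wild type. Leaving out any 1 of the 4 mutant and wild-type libraries kept the fold change between -2.35 and -2.20 but gave adjusted p of 0.0634 to 0.136, so the call needs both libraries of both genotypes. An antisense transcript, Gm20421, overlaps Hes5 in the annotation and has no count of its own. With the 2 count files kept under the samples they are attached to, the log2 fold change was 0.08 (adjusted p = 1.00).

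In heterozygous against wild-type heads the Hes5 log2 fold change was -0.99 (SE 0.53, 95% interval -2.28 to 0.31, adjusted p = 0.318). This value depended on the heterozygous library. Without heterozygous replicate 2 it was -2.13 (adjusted p = 0.0258), and without heterozygous replicate 1 it was -0.35 (adjusted p = 0.520), each with the lone library assumed to vary like the other genotypes. The difference of mutant from heterozygous heads was -1.29 (SE 0.55, adjusted p = 0.252), with values of -0.15 without heterozygous replicate 2 and -1.93 without heterozygous replicate 1.

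Neural progenitor genes were lower in the same mutant heads as Hes5. All 9 genes of that list (Sox1, Sox2, Sox3, Sox21, Msi1, Nes, Cdh2, Pou3f2, Pou3f3) fell in mutants, with a median log2 fold change of -0.91. In bulk heads, fewer cells of a type and less RNA per cell cannot be told apart. Hes5 reads were 0.262% and 0.284% of the summed CPM of that list in mutant, 0.219% and 0.666% in heterozygous and 0.730% and 0.765% in wild-type libraries. Scaling the libraries to that list left Hes5 lower in mutant than in wild-type heads, at -1.14 (adjusted p = 0.0139), while it moved the median of all genes to 1.12. That scaling is set by the mean of the same 9 genes, so their own values lie around 0 by construction and are no test of them. Within the list, Pou3f2 and Pou3f3, transcription factors of neural progenitors, were as low or lower on that scaling, at -2.14 and -1.17. The other 7 genes were above 0. Hes3 as a share of that list was 3.13% and 4.81% in mutant and 3.82% and 2.97% in wild-type libraries, which overlap.

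The Hes5 promoter is shown beside those of Hey2 and Hes7 because Hes5 was the 1 gene to pass, Hes7 stood out in 1 library and Hey2 did not pass, and each window holds the core letters of an RBPJ site. The windows run from 250 bases before to 50 bases after the gene's start (RefSeq, GRCm38.p6), 5′ to 3′ on the gene's strand. They lie at chr4:154960673-154960972 (Hes5, plus strand), chr10:30842734-30843033 (Hey2, minus strand) and chr11:69120203-69120502 (Hes7, plus strand). Capitals mark TGGGAA or its reverse complement TTCCCA.
Hes5: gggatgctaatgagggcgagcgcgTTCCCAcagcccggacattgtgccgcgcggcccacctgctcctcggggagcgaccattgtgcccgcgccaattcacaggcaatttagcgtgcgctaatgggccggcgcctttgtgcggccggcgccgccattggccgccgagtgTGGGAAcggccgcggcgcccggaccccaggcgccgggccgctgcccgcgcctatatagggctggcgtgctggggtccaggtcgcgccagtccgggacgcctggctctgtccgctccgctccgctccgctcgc
Hey2: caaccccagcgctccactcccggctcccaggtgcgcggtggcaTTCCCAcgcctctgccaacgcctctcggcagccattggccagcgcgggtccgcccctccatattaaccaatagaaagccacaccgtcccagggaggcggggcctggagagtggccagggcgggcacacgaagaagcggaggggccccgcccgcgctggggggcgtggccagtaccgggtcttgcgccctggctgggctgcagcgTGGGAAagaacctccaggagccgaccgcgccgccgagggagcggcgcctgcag
Hes7: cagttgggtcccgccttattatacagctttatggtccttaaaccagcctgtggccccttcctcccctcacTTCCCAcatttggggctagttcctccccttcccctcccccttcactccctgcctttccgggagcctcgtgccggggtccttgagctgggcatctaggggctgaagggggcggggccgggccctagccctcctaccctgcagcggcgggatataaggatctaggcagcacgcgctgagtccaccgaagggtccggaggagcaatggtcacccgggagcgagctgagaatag
TGGGAA, searched on both strands, matched at 2 places in the Hes5 window, 2 in the Hey2 window and 1 in the Hes7 window. All of these also matched the longer GTGGGAA, which contains it. In the Hes5 window the matches to TGGGAA began 226 bases before the start, on the minus strand of the window, and 82 bases before it on the plus strand. Of 32851 promoter windows searched, 25.6% held TGGGAA at least once and 3.79% at least 2 times, and 6.38% and 0.256% held GTGGGAA that often. The 2 windows of Hes6 held neither. The N-box CACNAG, a sequence that Hes proteins bind, was not in the Hes5 or Hey2 window, was in the Hes7 window once and in 1 of the Hes6 windows at 2 places, and is in 42.5% of all windows. Hes5, which fell in mutants, and Hey2, which did not pass, both have 2 matches. A match is a run of letters and not a shown binding site. Of the 8 genes, 4 have a promoter in the table used, and Hes1, Hes3, Hey1 and Heyl are not shown.

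Hes1 (chromosome 16, 30064384 to 30067796, plus strand, GRCm38), which acts in neural progenitors and in many other embryonic tissues, did not pass in any contrast. It stood at 37.1 and 37.3 RPKM in mutant, 34.3 and 33.6 RPKM in heterozygous and 38.8 and 36.1 RPKM in wild-type libraries. The mutant libraries lay within the wild-type range, and the heterozygous ones below both. The interval of the log2 fold change of mutant over wild-type heads ran from -0.16 to 0.16 (SE 0.07, adjusted p = 0.998). For heterozygous heads over wild-type heads the value was -0.14 (SE 0.07, adjusted p = 0.270). As a share of the neural progenitor list's CPM, Hes1 was 10.7% and 10.5% in mutant, 7.03% and 6.13% in heterozygous and 6.19% and 5.76% in wild-type libraries. With libraries scaled to that list it passed as higher in mutants, at 1.13 (adjusted p = 0.000112), a setting under which 83.9% of all genes passed and the median gene stood at 1.12, so relative to the median gene Hes1 stood at 0.02.

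Hes3 (chromosome 4, 152285972 to 152291662, minus strand), a repressor of neural progenitors known for its expression around the midbrain-hindbrain boundary, did not pass, although both mutant libraries lay under the other 4. It stood at 8.63 and 13.6 RPKM in mutant, 16.9 and 16 RPKM in heterozygous and 19 and 14.7 RPKM in wild-type libraries. The 2 mutant libraries differed from each other by more than the gap to wild-type replicate 2. The log2 fold change of mutant over wild-type heads was -0.60 (SE 0.23, 95% interval -1.16 to -0.04, adjusted p = 0.0954). It passed in DESeq2 (adjusted p = 0.0466), where 31.9% of all genes passed, and without mutant replicate 2 (-0.96, adjusted p = 0.0323), while without mutant replicate 1 it was -0.31 (adjusted p = 0.311). The heterozygous heads differed from wild-type heads by -0.03 (SE 0.22, adjusted p = 0.945), and the mutant heads from heterozygous heads by -0.57 (SE 0.23, adjusted p = 0.230). With libraries scaled to neural progenitor genes, the value for mutant over wild-type heads had the other sign, 0.54 (adjusted p = 0.0516), and stood at -0.58 relative to the median gene.

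Midbrain and isthmus genes, which mark that boundary, fell in 6 of 8 cases in mutants and rose in none, with a median log2 fold change of -1.99. Across all genes tested 13.6% fell. The log2 fold change was -4.26 for En2 (SE 0.80, adjusted p = 0.0134), -3.16 for Pax5 (SE 0.41, adjusted p = 0.00492), -2.35 for Pax8 (SE 0.41, adjusted p = 0.0109) and -0.96 for Lmx1b (SE 0.16, adjusted p = 0.0101), transcription factors of that region. Fgf8 and Pax2 did not pass, at 0.20 (adjusted p = 0.440) and -0.11 (adjusted p = 0.704). With libraries scaled to neural progenitor genes En2, Pax5, Pax8 and En1 still passed as lower, at -3.15, -2.03, -1.21 and -1.08. Wnt1 did not pass there, at -0.66 (adjusted p = 0.0982), and Lmx1b had the other sign, at 0.17 (adjusted p = 0.508). Fgf8 and Pax2 passed as higher on that scaling, at 1.33 and 1.01, where the median gene stood at 1.12. The 8 genes summed to 107 and 70.5 CPM in mutant, 166 and 180 CPM in heterozygous and 246 and 193 CPM in wild-type libraries. The part of these genes' tissue in the Hes3 and Hes5 values was not tested.

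Hes6 (chromosome 1, 91411483 to 91414038, minus strand) encodes a relative that promotes neuronal differentiation and counteracts Hes1. It stood at 10.1 and 11 RPKM in mutant, 10.2 and 11.7 RPKM in heterozygous and 11.1 and 9.86 RPKM in wild-type libraries, and the 3 groups overlap. Its log2 fold change was 0.02 in mutant against wild type (SE 0.12, 95% interval -0.29 to 0.32, adjusted p = 0.931) and 0.07 in heterozygous against wild type (SE 0.12, adjusted p = 0.780).

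Proneural and neuron genes, among them the genes that Hes factors hold back, fell in 6 of 9 tested cases in mutants and rose in none (median log2 fold change -1.28). Neurog2, a proneural factor, fell by 2.87 on the log2 scale (SE 0.49, adjusted p = 0.0102), Elavl4, an RNA-binding protein of young neurons, by 1.28 (SE 0.25, adjusted p = 0.0152) and Tubb3, neuronal tubulin, by 1.44 (SE 0.21, adjusted p = 0.00675). Stmn2, a tubulin regulator of neurons, fell by 1.28 (SE 0.12, adjusted p = 0.00182). On the scaling to neural progenitor genes Neurog2 still passed, at -1.74 (adjusted p = 0.00508), while Tubb3 at -0.32 (adjusted p = 0.211), Elavl4 at -0.15 (adjusted p = 0.677) and Stmn2 at -0.14 (adjusted p = 0.550) did not. Of the other genes on the list, Atoh1 was at 0 reads in both mutant and both heterozygous libraries, Neurod4 in mutant replicate 2 and both wild-type libraries, and Neurod1 in heterozygous replicate 2.

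Hes7 (chromosome 11, 69120404 to 69124055, plus strand), the somite clock repressor, was high in 1 library only. It had 10 and 65 reads in mutant, 6 and 8 reads in heterozygous and 10 and 4 reads in wild-type libraries. The 95% Poisson intervals, which cover counting error only, were 4.8 to 18.4 and 50.2 to 82.8 reads in the 2 mutant libraries and 4.8 to 18.4 and 1.09 to 10.2 reads in the wild-type ones. Mutant replicate 2 stands apart from the other 5 libraries, which overlap one another. In RPKM the values were 0.274 and 2.30 in mutant, 0.201 and 0.278 in heterozygous and 0.252 and 0.118 in wild-type libraries.

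Without a filter on low counts the Hes7 log2 fold change in mutant against wild type was 2.74 (SE 0.97, adjusted p = 0.0865), and DESeq2 gave 2.79 (adjusted p = 0.0581). The authors' deposited table gives 2.75 with a false discovery rate of 0.0294. Without mutant replicate 1 the value was 3.60, which rests on 1 mutant library. With 1 library left in a genotype, the filter on low counts admits a gene on 1 library. Hes7 entered that fit only through mutant replicate 2, where it is high, so the fit is no separate test of it. Leaving out a heterozygous or wild-type library gave values from 2.31 to 3.40, and Hes7 did not pass in those fits. A gene on the opposite strand, 9130213A22Rik, overlaps Hes7 in the annotation and has no count of its own.

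Most other genes of the segmenting mesoderm also had their highest level in that library. Of 13 presomitic mesoderm and somite genes, 10 had their highest level in mutant replicate 2, against 1 each in mutant replicate 1, heterozygous replicate 2 and wild-type replicate 1. Of the 9 that entered the fit, 3 rose and 2 fell in mutant against wild-type heads (median log2 fold change 2.13). Ripply1 rose by 2.13 (SE 0.42, adjusted p = 0.0151) and Uncx by 1.14 (SE 0.23, adjusted p = 0.0159), while Pax1 fell by 3.32 (SE 0.84, adjusted p = 0.0323). The list summed to 90.2 and 191 CPM in mutant, 78 and 110 CPM in heterozygous and 95 and 59.8 CPM in wild-type libraries. Tbx6, a transcription factor of the presomitic mesoderm, had 25 and 172 reads in mutant, 16 and 28 in heterozygous and 30 and 17 in wild-type libraries. Mesp2 and Ripply2, which set the boundary of the forming somite, had 22 and 28 reads in mutant replicate 2 and at most 6 and 7 in any other library. Mesp1 was at 0 reads in mutant replicate 1, and Msgn1 at 0 in both heterozygous libraries and in wild-type replicate 2. Hes7 made up 0.284% and 1.15% of the list's CPM in mutant, 0.246% and 0.245% in heterozygous and 0.260% and 0.193% in wild-type libraries, with the highest share again in mutant replicate 2. The part of this tissue in the Hes7 value was not tested.

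**Figure D2:**
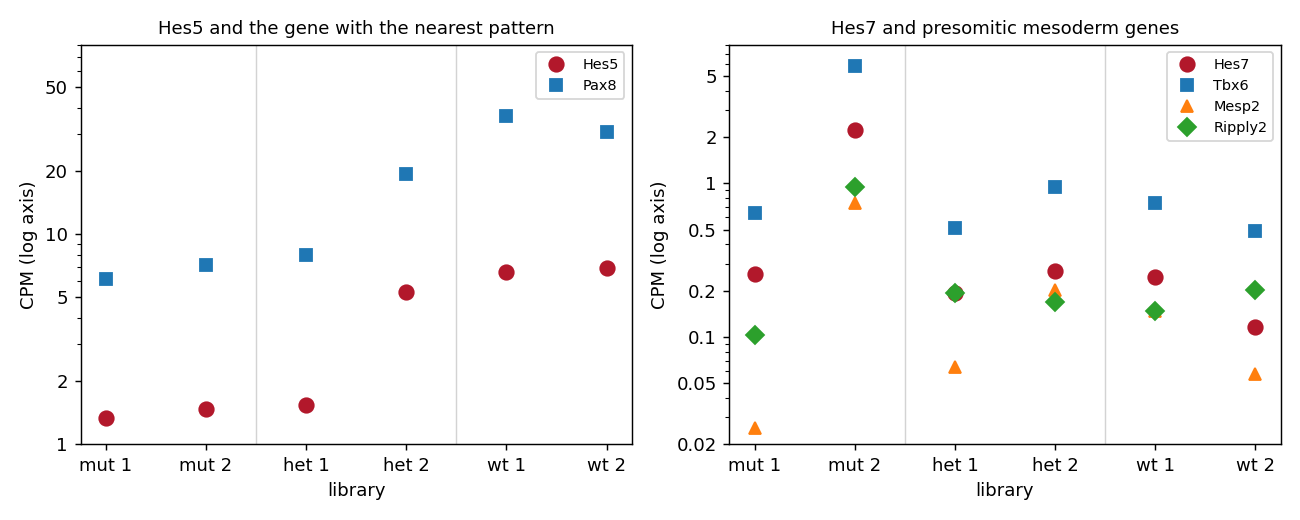
CPM by library on log axes, with grey lines between genotypes. On the left are Hes5 and the gene whose pattern was nearest to it, Pax8, both with heterozygous replicate 1 near the mutant level. On the right are Hes7, Tbx6, Mesp2 and Ripply2 (the last 3 chosen after their values were seen), all highest in mutant replicate 2.

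Hey1 (chromosome 3, 8663359 to 8667256, minus strand), which acts in atria, vessels and brain, stood at 9.45 and 8.37 RPKM in mutant, 8.14 and 8.38 RPKM in heterozygous and 8.30 and 7.31 RPKM in wild-type libraries. Both mutant libraries were above both wild-type ones, by little. Its log2 fold change was 0.20 in mutant against wild type (SE 0.11, 95% interval -0.07 to 0.47, adjusted p = 0.213), 0.08 in heterozygous against wild type (SE 0.11, adjusted p = 0.682) and 0.12 between mutant and heterozygous heads (SE 0.11, adjusted p = 0.577).

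Hey2 (chromosome 10, 30832359 to 30842801, minus strand), a repressor of the ventricle and of arterial endothelium, stood at 6.75 and 5.18 RPKM in mutant, 4.82 and 5.54 RPKM in heterozygous and 5.39 and 3.81 RPKM in wild-type libraries. The mutant and wild-type ranges overlap. Its log2 fold change was 0.38 in mutant against wild type (SE 0.21, 95% interval -0.15 to 0.91, adjusted p = 0.223) and 0.17 in heterozygous against wild type (SE 0.21, adjusted p = 0.667). Hey1 stood above Hey2 in all 6 libraries, with a ratio of their RPKM between 1.40 and 1.92. With libraries scaled to neural progenitor genes, Hes6, Hey1 and Hey2 passed as higher in mutant than in wild-type heads, at 1.15, 1.33 and 1.51, and stood at 0.03, 0.21 and 0.39 relative to the median gene.

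Heart genes were higher in the same heads. In mutants 10 of 12 tested heart genes rose and none fell, with a median log2 fold change of 3.61, and in heterozygous heads 9 of 12 rose, with a median of 4.08. Across all genes 17.1% rose in mutant and 6.03% in heterozygous heads. Gata4 and Nkx2-5, early heart transcription factors, rose by 4.79 (SE 0.56, adjusted p = 0.00358) and 2.51 (SE 0.40, adjusted p = 0.00833) in mutants. The intervals of Hey1 and Hey2 reached 0.47 and 0.91. Hey1 was 1.01% and 1.56% of the heart list's CPM in mutant, 1.05% and 0.697% in heterozygous and 8.02% and 13.2% in wild-type libraries. The part of heart tissue in the Hey1 and Hey2 values was not tested.

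Heyl (chromosome 4, 123233556 to 123249875, plus strand), expressed in smooth muscle of vessels and in somites, was the scarcest of the tested genes. It had 35 and 30 reads in mutant, 18 and 26 reads in heterozygous and 57 and 53 reads in wild-type libraries. Every mutant and heterozygous library was below both wild-type ones. The log2 fold change was -0.56 in mutant against wild type (SE 0.32, adjusted p = 0.227) and -0.99 in heterozygous against wild type (SE 0.32, 95% interval -1.79 to -0.19, adjusted p = 0.143), so neither passed. With libraries scaled to neural progenitor genes the value for mutant over wild-type heads had the other sign, 0.57 (adjusted p = 0.216). Endothelium genes summed to 523 and 501 CPM in mutant, 482 and 557 CPM in heterozygous and 490 and 643 CPM in wild-type libraries, with none of the 12 at 0 in any library. In mutants 2 of the 12 rose, Tek at 1.6 (SE 0.18, adjusted p = 0.00301) and Sox17 at 1.16 (SE 0.18, adjusted p = 0.00774), and 1 fell, Efnb2 at -1.20 (SE 0.13, adjusted p = 0.00313).

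**Figure D3:**
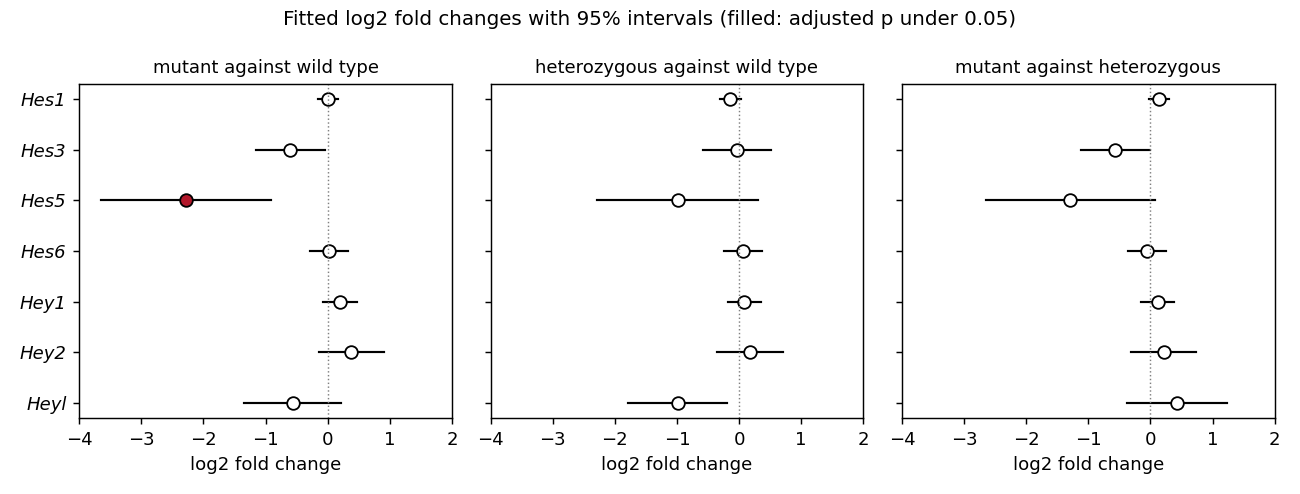
Fitted log2 fold change (x axis) of the 7 tested genes in the 3 contrasts, with 95% intervals from edgeR's quasi-likelihood fit and filled points where the adjusted p was under 0.05. The filled point is Hes5 in mutant against wild type, at -2.28, and the intervals of Hes1, Hes6, Hey1 and Hey2 include 0 in all 3 contrasts.

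None of the tested Hes and Hey genes passed edgeR's test between heterozygous and wild-type heads (0 of 7), where 6.56% of all genes passed, 6.03% as higher and 0.533% as lower. Heyl alone was under 0.05 there without adjustment (unadjusted p = 0.0235, edgeR), as were 3598 of the 15187 genes tested, a larger share than 1 of 7. Between mutant and heterozygous heads 0 of 7 passed as well, where 0.435% of all genes passed, 0.0724% as higher and 0.362% as lower. There Hes3 alone was under 0.05 without adjustment (unadjusted p = 0.0477, edgeR), as were 3228 of the 15187 genes tested, again a larger share. DESeq2 passed 0 of these genes in both contrasts, where it passed 11.9% and 9.61% of all genes, and it gave Hes7 no adjusted value for mutant over heterozygous heads. The 2 mutant contrasts share the mutant libraries and the 2 wild-type contrasts the wild-type libraries. The authors' deposited table gives 3 of the 8 genes a false discovery rate under 0.05 for mutant against wild type, where 14.3% of all genes did. They were Hes5 at -2.28 with a rate of 0.000574, Hes7 at 2.75 with 0.0294 and Hes3 at -0.61 with 0.0443. Per its header, the authors' deposited table holds a likelihood ratio statistic, not the quasi-likelihood test.

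The genes whose pattern over the 6 libraries was nearest to each tested Hes or Hey gene were found by the root mean square difference of centred log2 CPM. For Hes5 the nearest was Pax8, a paired-box gene of the isthmus and ear, at a distance of 0.19. Pax8 stood at 6.15 and 7.15 CPM in mutant, 7.95 and 19.5 CPM in heterozygous and 36.7 and 30.9 CPM in wild-type libraries. For Hes3 they were Tctex1d2 at 0.10 and Eif4e3 at 0.12, for Hey2 Igfbp2 at 0.07 and Mgarp at 0.10, and for Heyl Dmtn at 0.13 and Cdk18 at 0.16. Hes1 (Kpna2 and Ensa), Hes6 (Zscan26 and Tspyl2) and Hey1 (Atg4d and Ptpn23) had neighbours at 0.02 to 0.03, and varied least themselves, with SDs of 0.08, 0.10 and 0.12 in log2 CPM over the libraries.

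The Notch pathway lists are given as counts between mutant and wild-type heads, where 17.1% of all genes tested rose and 13.6% fell. Of 4 receptors 1 fell, Notch3, at 52.2 and 41.2 CPM in mutant, 161 and 174 CPM in heterozygous and 180 and 195 CPM in wild-type libraries, while Notch1, Notch2 and Notch4 did not pass. The list's median log2 fold change was 0.00. Of 6 ligands 2 rose and 1 fell (median 0.25). Dll4, a ligand of endothelium, rose by 0.99 (SE 0.15, adjusted p = 0.00745) and Dlk1, a noncanonical ligand, by 2.38 (SE 0.29, adjusted p = 0.00404), and Jag1 fell by 0.95 (SE 0.14, adjusted p = 0.00652).

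Of 16 genes listed for processing or modifying receptors and ligands, 3 rose, close to the share of all genes, and 5 fell (median -0.02). Among them Lfng, a fringe that glycosylates Notch and cycles in the presomitic mesoderm, fell by 1.57 (SE 0.28, adjusted p = 0.0116) and Mfng, another fringe, by 1.77 (SE 0.21, adjusted p = 0.00371). Pofut2, a fucosyltransferase for which no action on Notch is shown here, rose by 0.63 (SE 0.07, adjusted p = 0.00256). Its relative Pofut1 did not pass, at -0.11 (SE 0.07, adjusted p = 0.267). Aph1a, a part of gamma-secretase, rose by 0.33 (SE 0.05, adjusted p = 0.00966). Of 12 genes of the nuclear complex and feedback, 1 rose and 3 fell (median -0.07). Rbpj, the DNA-binding partner, fell by 0.81 (SE 0.06, adjusted p = 0.00107) and Maml3, a coactivator, by 0.75 (SE 0.07, adjusted p = 0.00175), and Numb, an inhibitor of Notch, rose by 0.53 (SE 0.09, adjusted p = 0.00966).

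Of the 6 genes of the Groucho corepressor family, 2 fell and 1 rose in mutants (median -0.15). Tle4 fell by 1.04 (SE 0.09, adjusted p = 0.00123) and Tle1 by 0.42 (SE 0.06, adjusted p = 0.00725), and Aes, a short family member, rose by 0.59 (SE 0.10, adjusted p = 0.0109). Tle4 also fell in heterozygous heads, by 0.46 (SE 0.08, adjusted p = 0.0362), and Dlk1 and Pofut2 rose there, by 1.56 (SE 0.29, adjusted p = 0.0347) and 0.35 (SE 0.07, adjusted p = 0.0367). Between mutant and heterozygous heads Notch3 and Rbpj passed, at -1.80 (SE 0.13, adjusted p = 0.0103) and -0.75 (SE 0.06, adjusted p = 0.0175). On the neural progenitor scaling, Tle1 and Tle4 had the other sign, as did Jag1, Rbpj and Maml3, while Notch3 at -0.81 (adjusted p = 0.00103) and Mfng at -0.63 (adjusted p = 0.0372) still passed as lower and Lfng at -0.43 (adjusted p = 0.0754) did not. Of the related repressor genes, Hes2 had 0 reads in all 6 libraries and Helt a single read, in wild-type replicate 2, and Bhlhe40 and Bhlhe41 did not pass.

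**Figure D4:**
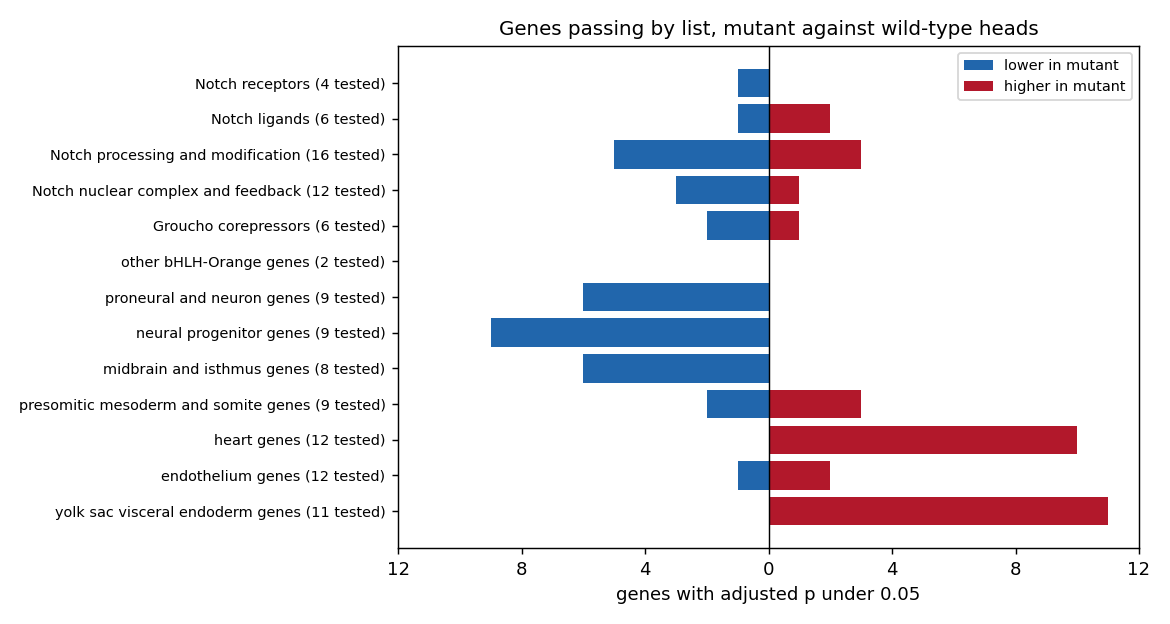
Number of genes per list with an adjusted p under 0.05 in mutant against wild-type heads (edgeR), higher in mutant to the right in red and lower to the left in blue, with the number tested in brackets. Ligands, processing genes, nuclear partners and corepressors had genes on both sides and 1 receptor lay on the lower side, while the 9 neural progenitor genes lay on the lower side and the 11 yolk sac genes on the higher side.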

How the data were processed

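PolyA-selected RNA of 6 embryo heads was sequenced from stranded paired-end libraries, per the labels' protocols. The submitters' processing notes name mm10 and the tools TopHat2 (2.0.11), HTSeq (0.6.1p2) and edgeR (3.8.6). Which annotation and strand setting the counter used is not given in the sources used here. The authors deposited raw counts per gene and library. The authors' table, also deposited, has RPKM per library, log2 fold changes, the score of a likelihood ratio test, p-values and false discovery rates. Its second comparison was not analysed here. The RPKM unit was read from the values, since the header does not name it. The 5 summary lines per file stayed out of library sizes (8.93% to 10.5% of reads in no feature, 1.04% to 1.08% ambiguous, 12.7% to 14.5% without unique alignment).

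Count files were assigned by the title in their name. Against the same-titled column, the ratio of count to RPKM, set against wild-type replicate 1, was constant within 0.1% for 100% of genes with over 50 reads. The test across all genes used edgeR 4.0.16 under R 4.3.3 (TMM, filterByExpr, glmQLFit, glmQLFTest, all 6 libraries, 3 residual degrees of freedom, Benjamini-Hochberg over 15187 genes, threshold 0.05). The fit was tested on simulated data. Standard errors are the log2 fold change over the square root of F, and intervals use the total degrees of freedom. CPM of Hes5, Prdm15 and the nearest genes uses TMM sizes in the plot and the likeness measure, and all other CPM library totals. DESeq2 1.42.0, RLE size factors, scaling to 9 neural genes, no filter, fits of 2 genotypes, files as attached and leaving out each library were alternatives. Genes named from lists are those passing with the smallest p, at most 2 in each direction or 4 in 1 direction, and the 2 nearest genes have a mean of at least 5 CPM. The Hes and Hey genes, lists and tests were chosen with earlier results of these data known. Positions are from GENCODE M21 (GRCm38). No protein sequence was used here. Some results are not reported here.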

Additional observations from a re-analysis of the deposited data

How the results depend on the processing

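Of 252 single-gene values under the alternatives, 232 kept their side of the threshold (uncalled values that changed sign included), 13 came to pass, 4 no longer passed and 3 changed sign with a call on either side. The 4 are Hes5 in mutant against wild type without 1 mutant or wild-type library. With files as attached, Hes5 in that contrast had the other sign (0.084), and 0 genes passed in each of the 3 contrasts, against 4654, 997 and 66 by title (1, 0 and 0 of the Hes and Hey genes by title, 0 in each as attached). Scaling by neural progenitor genes put the all-gene median at 1.12, 0.53 and 0.60, turned Hes1 in mutant against wild type (1.13) and Hes6 in mutant against heterozygous (0.56), and passed 12746, 7171 and 9084 genes (12497, 6988 and 8912 of them higher, against 2594, 916 and 11 without it), 5, 3 and 5 of them Hes or Hey genes. DESeq2 passed 1897 and 1321 genes in the heterozygous against wild type and mutant against heterozygous contrasts, and 2 Hes genes in mutant against wild type. No filter gave 182 and fits of 2 genotypes 106 genes in mutant against heterozygous heads. Leaving out 1 library gave 1997 to 4265, 313 to 748 and 11 to 81 genes in the 3 contrasts. The Hes or Hey genes among them numbered 0 to 1, 0 to 1 and 0 to 0. In mutant against wild type the 1 gene is Hes3 without mutant replicate 2 and Hes5 with either heterozygous replicate left out. Without mutant replicate 1 it is Hes7, which the filter admitted to that fit only through mutant replicate 2, so that pass is no test. The cause of these differences was not tested. Depth limits Hes7 and Heyl, with 4 to 65 and 18 to 57 reads per library. The replicate numbers follow accession order and pair no libraries.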
